A study of Homo sapiens with 23 samples.

Results

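LYN, its relatives among the Src family tyrosine kinases (BLK, FGR, LCK, FYN, SRC and YES1) and CSK, the kinase that restrains them, were followed across polysomal RNA of 2 lymphoma lines. The 8 genes were chosen by name, and every probe that the array annotation assigns to their symbols was taken. Of 18 such probes, 9 were detected, among 18136 detected probes in all, and these 9 measured 6 of the 8 genes, among 10546 named genes. To count as detected, a probe needed a detection p no higher than 0.02 throughout 1 or more groups.

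The lines model diffuse large B-cell lymphoma (DLBCL), SUDHL-2 its ABC-like and SUDHL-4 its GCB-like form. Each received INK128, which inhibits mTOR, at 40 nM for 24 h, with 0.01% DMSO as its control. In a second experiment both received ethanol (EtOH) at 20 mM for 48 h, beside water. The flasks of EtOH cells were sealed; for the water cells the sources used here do not say. RNA of the heavy polysomal fractions 9 to 11 was pooled, and 0.5 μg went to each Illumina HumanHT-12 array. The values thus compare a transcript with the rest of that pool, and in such bulk RNA fewer cells with a transcript and less of it per cell cannot be told apart. No total RNA was arrayed, so more of a transcript in the cell and a larger part of it on heavy polysomes cannot be told apart either. There were 23 arrays in 8 groups, with 3 arrays a group apart from SUDHL-2 with EtOH, with 2. The study calls its replicates independent, without saying whether they were separate cultures, and p-values measure the spread between these arrays.

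Src family kinases are held at the inner face of the plasma membrane by lipid anchors, and CSK keeps them shut by phosphorylating a tyrosine in their tail. In B cells LYN and BLK phosphorylate the CD79A and CD79B chains of the B-cell receptor, which recruits SYK, BTK and PLCG2. LYN also phosphorylates inhibitory receptors such as CD22 and CD72, which recruit the phosphatases PTPN6 and INPP5D, so that it both starts and limits the signal. LCK and FYN are best known from the T-cell receptor, FGR from myeloid cells, and SRC and YES1 from cell adhesion.

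LCK and FGR are shown here by the stretch of 160 bases before each start that RefSeq annotates (GRCh38.p14, chromosome 1), since both rose with INK128 in SUDHL-4 and were at or near background in SUDHL-2. Capitals mark the letters AGGAAG, searched on both strands, which hold the GGAA core known from sites of ETS factors. Of the 250 bases available before a start, only these 160 were searched. The motif was picked after the sequences had been read. It was found before both LCK starts and before 1 of the 2 FGR starts, and before 19.9% of the 35116 annotated starts in that table. CSK (1 start listed), FYN (4 starts) and YES1 (1 start) had no such match. LYN, BLK and SRC were not listed.
LCK, first start (chr1:32251105-32251264, plus strand): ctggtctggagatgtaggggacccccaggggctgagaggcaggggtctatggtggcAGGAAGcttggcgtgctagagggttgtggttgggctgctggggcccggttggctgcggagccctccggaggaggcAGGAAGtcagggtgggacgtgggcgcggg
LCK, second start (chr1:32273961-32274120, plus strand): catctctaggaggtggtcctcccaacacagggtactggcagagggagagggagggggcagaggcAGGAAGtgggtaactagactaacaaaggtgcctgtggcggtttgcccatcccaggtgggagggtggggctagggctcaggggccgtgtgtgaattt
FGR, first start (chr1:27635186-27635345, minus strand): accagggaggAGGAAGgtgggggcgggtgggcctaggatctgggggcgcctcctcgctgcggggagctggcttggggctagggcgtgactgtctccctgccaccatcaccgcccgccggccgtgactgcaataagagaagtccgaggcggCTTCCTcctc
FGR, second start (chr1:27626598-27626757, minus strand): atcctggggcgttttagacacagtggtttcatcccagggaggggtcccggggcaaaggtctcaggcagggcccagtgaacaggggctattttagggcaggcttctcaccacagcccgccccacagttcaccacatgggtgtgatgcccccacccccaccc

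Detection set apart the genes that could be followed from those that could not. LYN, BLK and CSK each had 1 probe, and each was detected on all 23 arrays. FGR kept 2 of its 3 probes and LCK 3 of its 4. All of these were detected on all 12 SUDHL-4 arrays, apart from 1 LCK probe on 1 DMSO array. In SUDHL-2, over all its probes, FGR was above background on 1 of 3 DMSO, 2 of 2 EtOH and 2 of 3 water arrays, and by the kept probes on 1 EtOH and 1 water array. LCK was so on 1 of 3 DMSO and 1 of 2 EtOH arrays. The probes left out were below background on most arrays: the remaining FGR probe was detected on 6 arrays and the remaining LCK probe on 2, both of these SUDHL-4 with INK128. SRC was detected by 1 of its 3 probes, on the 2 EtOH and 3 water arrays of SUDHL-2 and nowhere else. Its signals there were 71.4 and 70.1 with EtOH, against 87.4, 96 and 102.6 with water. The lowest signal of any detected probe, taken as the floor of each array, was 59.4 to 74.2 in the EtOH experiment and 76.3 to 91.4 in the INK128 experiment. A SRC signal of 89.5 on a SUDHL-2 DMSO array thus lay below the floor. FYN was not above background with any of its 4 probes on any of 23 arrays, where its signal was at most 0.96 of the floor. YES1 passed on 3 of 23 arrays, scattered over 3 groups, with at most 1.16 times the floor, and was not tested.

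**Figure D1:**
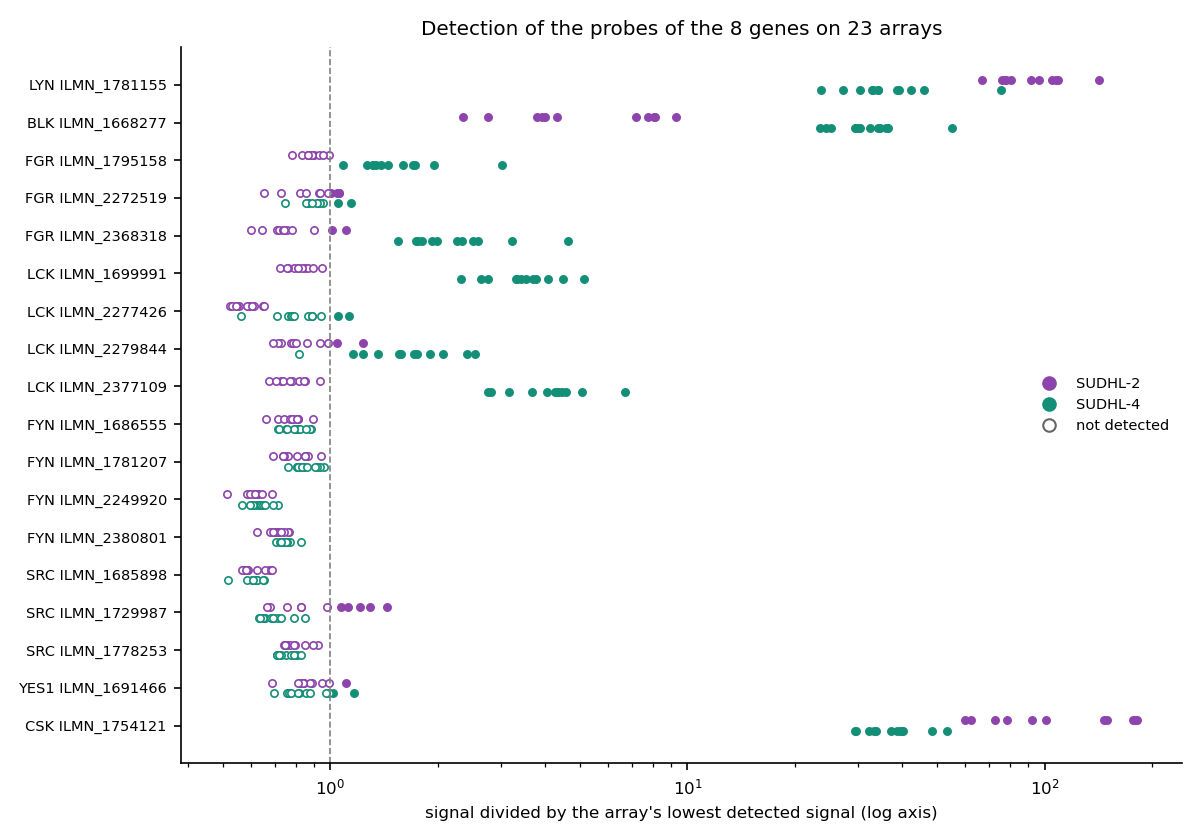
Signal of each of the 18 probes on each of 23 arrays, divided by that array's lowest detected signal (log axis), with SUDHL-2 in purple above SUDHL-4 in green and open circles for arrays where the probe was not detected. LYN and CSK lie at 23.7 or more times the floor, while the 4 FYN probes lie below it on every array.

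Lines and markers were checked once. An array detected 14699 to 17098 probes, with a median of 15360, and the SUDHL-2 DMSO array with the highest number was also the brightest. Of 8 B-cell markers 6 were measured, each on all arrays of both lines, while PAX5 was not above background on any. Their levels differed between the lines. With DMSO the summed signal of this list was 4153.3 to 9826.7 in SUDHL-2, against 45148.1 to 49435.7 in SUDHL-4. Of 8 T and NK cell markers, CD3D, CD3E, CD7 and GNLY were detected on 0 of 23 arrays, CD3G on 1, CD2 on 10 of 11 SUDHL-2 and 11 of 12 SUDHL-4 arrays, and NKG7 on 9 SUDHL-2 arrays. TRAC had no probe. The summed signal of this list was 666.2 to 669.7 with INK128, against 725.7 to 855.9 with DMSO, in SUDHL-2, and 609.3 to 624.2 against 636.4 to 656 in SUDHL-4. Of 8 myeloid markers, CSF1R, S100A8, S100A9 and ITGAM were at 0 arrays. CD14 was detected on 1 SUDHL-2 and 9 SUDHL-4 arrays, LYZ on 7 and 11, FCGR3A on 1 and 3, and MPO on 2 SUDHL-2 arrays. That sum was 704.7 to 726.2 with INK128, against 742.2 to 855.2 with DMSO, in SUDHL-2, and 689 to 697.6 against 706.8 to 732.3 in SUDHL-4. Most of the probes in these 2 sums were not above background, and the floor was lower with INK128 as well, at 78.3 to 78.5 against 86.5 to 91.4 with DMSO in SUDHL-2 and at 76.3 to 76.7 against 80.1 to 81.8 in SUDHL-4.

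INK128 raised polysomal LYN in both lines. Levels below are scaled log2 signals, that is, each array's log2 signals set to a common mean and spread over the detected probes, so that 0 is the array's average probe. In SUDHL-4, LYN stood at 4.01, 4.05 and 4.06 on the INK128 arrays, against 3.05, 3.05 and 2.75 on the DMSO arrays. The groups did not overlap, and neither did the signals as deposited, with 3250.9 to 5778.5 against 1896.9 to 2445.2. The log2 difference was 1.09 (SE 0.13, limma's adjusted p = 0.000252), or 2.13-fold. In SUDHL-2, LYN stood at 4.94, 4.93 and 5.24 with INK128, against 4.12, 4.42 and 4.47 with DMSO, again without overlap. There the log2 difference was 0.70 (SE 0.13, adjusted p = 0.0167), or 1.62-fold. Before scaling the SUDHL-2 signals did overlap, at 7191.9 to 11160.6 with INK128 against 5822.8 to 9996.5 with DMSO, the highest DMSO value being that of the brightest array. Without that array the difference was 0.59 (adjusted p = 0.0542), and the call was also lost with median centring (0.53, adjusted p = 0.0894), without a detection filter (adjusted p = 0.0661), with trend and robust moderation (adjusted p = 0.0527) and with only the 2 groups compared (adjusted p = 0.153). LYN had been picked out by the study on these same arrays, so its direction here is not independent evidence. The paper also followed LYN by other assays. Its RT-qPCR of gradient fractions from the ABC-like line found more LYN mRNA in heavy polysomes with INK128, and little or no change with EtOH. Total LYN mRNA was not among those the paper found altered, and its western blots showed protein changing along with the polysomal profile. Those assays are not part of the data used here.

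Among all 14636 entries tested with INK128 in SUDHL-2, 2.15% passed an adjusted p under 0.05 as higher and 1.47% as lower. In SUDHL-4 these shares were 8.27% and 7.17%. Against this background 2 of the 6 measured members rose in SUDHL-2 (LYN and BLK) and 4 of 6 in SUDHL-4 (LYN, BLK, FGR and LCK), and none fell in either line. By their kept probes SRC was below background in both lines in this experiment, and FGR and LCK were at or near background in SUDHL-2. Their lack of a call there tells nothing about a change. The median of all entries was 0.03 in SUDHL-2 and -0.06 in SUDHL-4.

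BLK, the B-lineage member of the family, rose along with LYN. In SUDHL-4 it reached 3.44, 3.69 and 3.61 with INK128, against 2.78, 2.83 and 2.80 with DMSO. Every treated array was above every control array, with a log2 difference of 0.78 (SE 0.11, adjusted p = 0.000683). In SUDHL-2, where BLK was near the average probe, it stood at 0.03, 0.07 and 0.31 with INK128 and at -0.41, -0.56 and -0.43 with DMSO. That difference was 0.60 (SE 0.11, adjusted p = 0.0150), and it missed the threshold without DMSO replicate 2 (adjusted p = 0.0510) or DMSO replicate 3 (adjusted p = 0.0536). It was also lost with median centring (adjusted p = 0.0541) and with only the 2 groups compared (adjusted p = 0.158). As deposited, the BLK signals of SUDHL-2 overlapped, at 307.3 to 337.1 with INK128 and 204.7 to 346.8 with DMSO.

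LCK and FGR, the kinases best known outside the B lineage, rose in SUDHL-4. LCK stood at -0.06, 0.02 and -0.03 with INK128, against -0.74, -0.88 and -0.87 with DMSO. Its log2 difference was 0.81 (SE 0.11, adjusted p = 0.000447), and the 3 detected probes gave 0.66, 0.96 and 0.79, all called; the middle value rests on 2 of 3 DMSO arrays above background. The LCK probe left out by the filter gave signals of 72.3 to 86.2 with INK128 against 45.9 to 62.1 with DMSO. FGR stood at -0.69, -0.47 and -0.25 with INK128, against -1.08, -1.17 and -1.28 with DMSO. It was higher by 0.71 (SE 0.14, adjusted p = 0.00471), with 0.51 and 0.90 from its 2 probes (adjusted p = 0.0366 and 0.00107). Deposited signals of the probe with 0.51 overlapped, at 132 to 231.1 with INK128 and 105.5 to 136.9 with DMSO. Both genes were dim, at most 6.67 times the floor. In SUDHL-2 the kept probes of FGR and SRC were above background on no INK128 or DMSO array, and those of LCK on 1 DMSO array, so no fold change is given there. Nor is one given for FGR and LCK with EtOH in SUDHL-2, where their kept probes were above background on at most 1 array a group.

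CSK did not pass the test with INK128. In SUDHL-2 it stood at 3.99, 4.47 and 5.39 with INK128, against 3.90, 4.26 and 4.09 with DMSO. The treated arrays were far apart, and 1 of them alone exceeded the others by a wide margin. The log2 difference was 0.54 (95% interval -0.06 to 1.14, adjusted p = 0.348), so a rise of the size seen for LYN could not be told from none. In SUDHL-4 CSK stood at 3.45, 3.71 and 3.43 with INK128, against 3.13, 3.60 and 3.08 with DMSO, an overlapping pair of groups with a difference of 0.26 (95% interval -0.34 to 0.86, adjusted p = 0.678).

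**Figure D2:**
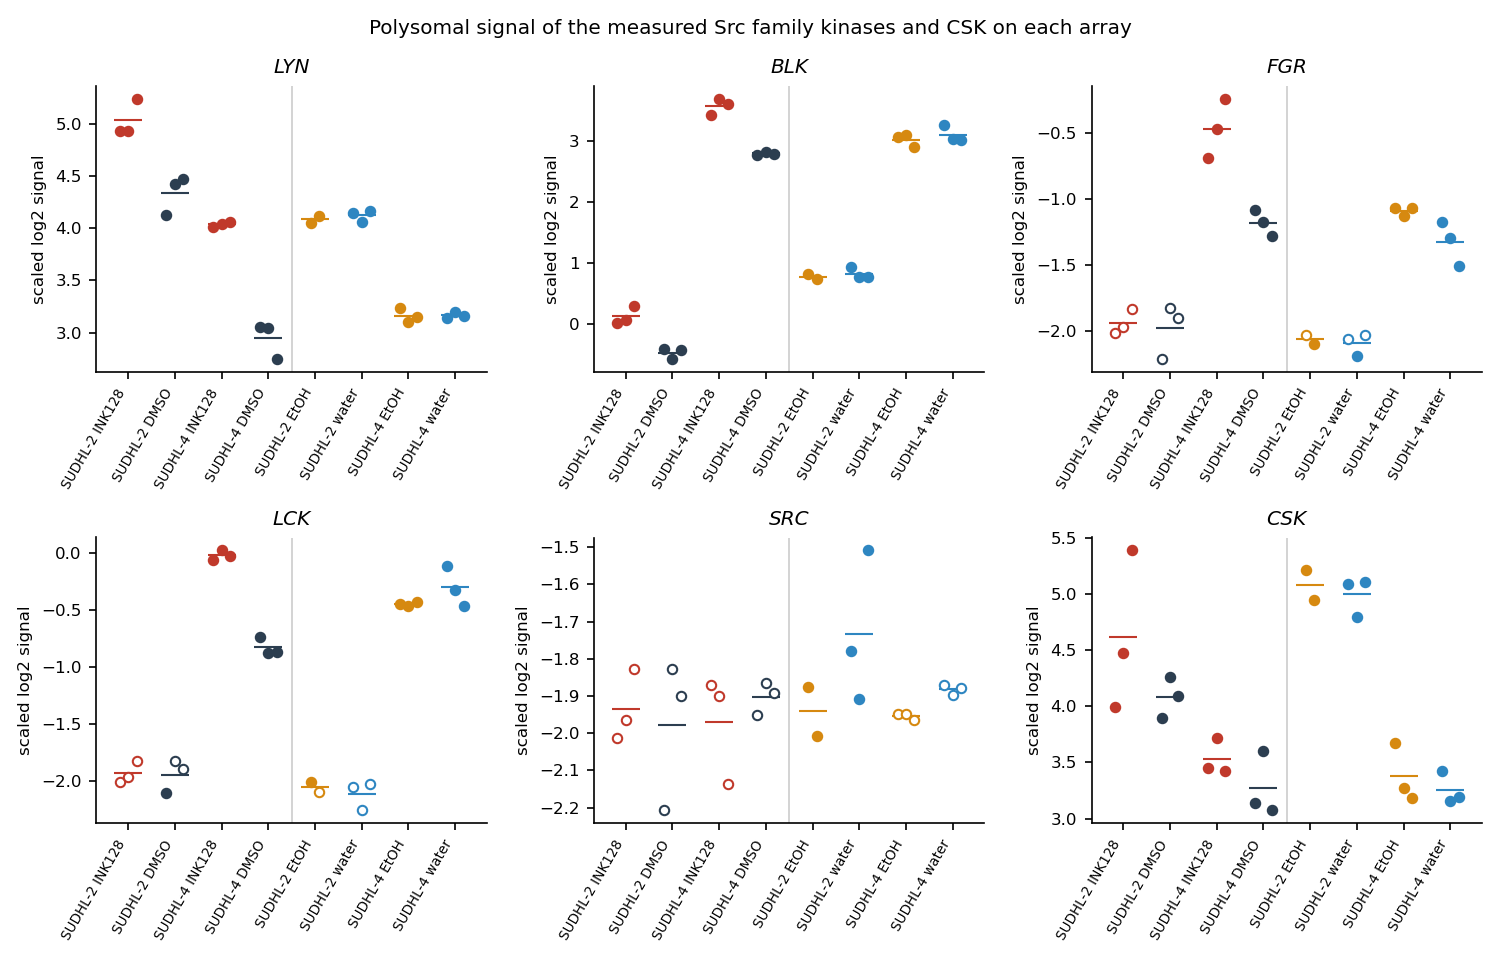
Scaled log2 signal of the 6 measured members on each array, by group, with INK128 beside DMSO and EtOH beside water; points are arrays, lines are group means, and open points are arrays on which no kept probe of the gene was detected. LYN and BLK lie higher with INK128 than with DMSO in both lines, whereas EtOH and water arrays overlap for LYN, BLK, LCK and CSK.

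EtOH left the measured members uncalled in both lines. Of all entries, 8.94% were called higher with EtOH in SUDHL-2 and 7.24% lower. SUDHL-4 gave 0.307% higher and 0.082% lower. Of the 6 members 0 was called in either line, and at an unadjusted limma p under 0.05 there was 1, FGR in SUDHL-4. At that unadjusted limit 2048 of all 14636 entries passed in SUDHL-4 and 4144 in SUDHL-2. FGR and LCK in SUDHL-2 and SRC in SUDHL-4 were at or near the floor, so their lack of a call there tells nothing about a change. LYN stood at 4.05 and 4.12 with EtOH, against 4.15, 4.06 and 4.17 with water, in SUDHL-2. The difference was -0.04, with a 95% interval of -0.21 to 0.13 (limma's adjusted p = 0.810). In SUDHL-4 it stood at 3.23, 3.10 and 3.15 with EtOH, against 3.15, 3.20 and 3.16 with water. There the interval ran from -0.16 to 0.15 around a difference of -0.00 (adjusted p = 0.977). Both intervals leave out a rise as large as those of LYN with INK128.

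The other members with EtOH are given by their values. BLK stood at 0.83 and 0.74 with EtOH, against 0.94, 0.77 and 0.78 with water, in SUDHL-2, and at 3.07, 3.10 and 2.91 against 3.26, 3.03 and 3.01 in SUDHL-4. Its differences of -0.04 (95% interval -0.27 to 0.18) and -0.08 (95% interval -0.28 to 0.13) lay within the spread of the arrays. FGR in SUDHL-4 stood at -1.07, -1.13 and -1.07 with EtOH, against -1.18, -1.30 and -1.50 with water. These groups did not overlap, and the difference of 0.24 (SE 0.09) had an adjusted p of 0.254. LCK in SUDHL-4 stood at -0.45, -0.47 and -0.43 with EtOH, against -0.12, -0.33 and -0.46 with water, a difference of -0.15 (SE 0.10, adjusted p = 0.552) on which its probes disagreed, from -0.30 to 0.06. SRC in SUDHL-2 was lower by 0.21 with EtOH (SE 0.11, adjusted p = 0.234); its deposited signals did not overlap, but its scaled levels did. CSK differed by 0.08 in SUDHL-2 (95% interval -0.27 to 0.43) and by 0.12 in SUDHL-4 (95% interval -0.19 to 0.43).

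**Figure D3:**
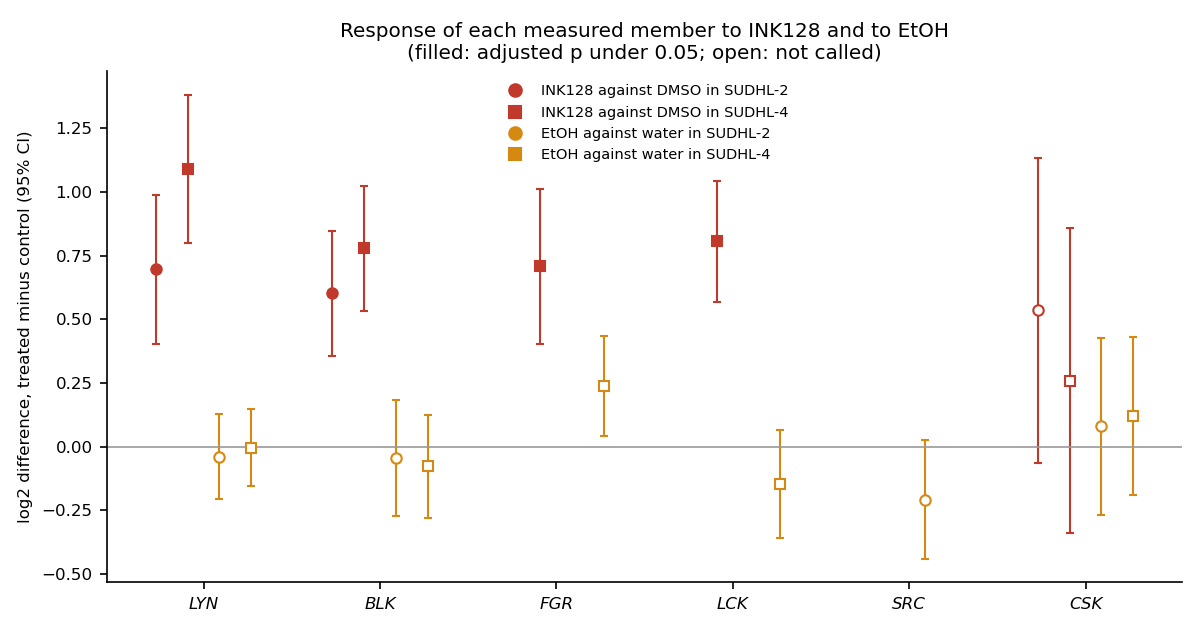
Log2 difference of each member for INK128 against DMSO (red) and EtOH against water (orange) in SUDHL-2 (circles) and SUDHL-4 (squares), with 95% intervals; filled symbols passed an adjusted p under 0.05, and comparisons in which a group was not wholly above background are left out. The INK128 values of LYN are 0.70 and 1.09, and its EtOH values are near 0.

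The agents were set against each other within a line by the difference of their responses, EtOH against water minus INK128 against DMSO. Agent and exposure time differ together in it (48 h and 24 h), so they cannot be told apart. In SUDHL-2, 6.2% of entries differed, and so did LYN (-0.73, SE 0.16, adjusted p = 0.00707) and BLK (-0.65, SE 0.15, adjusted p = 0.0113). Both were lost with median centring (-0.45, adjusted p = 0.148, and -0.59, adjusted p = 0.0633), and BLK without EtOH replicate 2 (-0.60, adjusted p = 0.0779). In SUDHL-4, where 9.25% of entries differed, the response to EtOH was smaller for LYN (-1.09, SE 0.15, adjusted p = 8.83e-05), BLK (-0.86, SE 0.14, adjusted p = 0.000508) and LCK (-0.96, SE 0.14, adjusted p = 0.000188). FGR differed by -0.47 (SE 0.17, adjusted p = 0.0860), short of the threshold. It passed with quantile normalization (-0.43, adjusted p = 0.0153) and without SUDHL-2 DMSO replicate 1 (-0.47, adjusted p = 0.0499) or SUDHL-4 INK128 replicate 1 (-0.58, adjusted p = 0.0344).

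Between the lines, the responses to INK128 differed for 4.32% of entries and those to EtOH for 5.31%, or 777 entries, against 1489 with the replicate number as a block. The INK128 response of LYN was 0.39 smaller in SUDHL-2 than in SUDHL-4, with a 95% interval of the difference of -0.81 to 0.02 (adjusted p = 0.295), and that of BLK differed by -0.18 (95% interval -0.52 to 0.17, adjusted p = 0.618). LCK was called (-0.80, adjusted p = 0.0160), yet its SUDHL-2 side rests on arrays at the floor, so this is no measured difference in response. With EtOH 0 of 6 members differed between the lines, and the smallest of their unadjusted limma p-values was 0.145, for FGR. In that experiment FGR and LCK were at or near the floor in SUDHL-2, and SRC was so in SUDHL-4. Only LYN, BLK and CSK were thus measured on both sides of this comparison.

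Between the control arrays of the lines, 5 of the 6 members were called. FGR and LCK are in this count by construction, since their probes were kept only for SUDHL-4, where they are high. With probes detected on every array, 3 members remained, LYN, BLK and CSK. On DMSO arrays 26.9% of entries were higher and 29.1% lower in SUDHL-2 than in SUDHL-4, and on water arrays 27.5% and 38.3%. Of the 6 members, LYN and CSK were higher and BLK, FGR and LCK lower in SUDHL-2, in both sets of controls. LYN was higher by 1.39 on DMSO arrays (SE 0.13, adjusted p = 2.28e-06) and by 0.96 on water arrays (SE 0.07, adjusted p = 2.82e-07). BLK was lower by 3.27 on the log2 scale on DMSO arrays (-3.27, SE 0.11, adjusted p = 1.62e-10) and by 2.27 on water arrays (-2.27, SE 0.09, adjusted p = 1.67e-09). BLK shared this direction with most measured B-cell markers. Of these 6, 4 were lower and 1 higher in SUDHL-2 on DMSO arrays (median -2.67). On water arrays 4 were lower and 0 higher (median -2.04). CSK was higher by 0.81 on DMSO arrays (SE 0.28, adjusted p = 0.0236), a call that was lost with 4 of the 6 DMSO arrays when each was left out (lowest value 0.71, highest adjusted p = 0.0801), without a detection filter (0.80, adjusted p = 0.162) and with the Z-score over all probes (0.80, adjusted p = 0.0589). On water arrays it was higher by 1.74 (SE 0.14, adjusted p = 8.46e-07). The DMSO and water arrays belong to different experiments, and the gap between their line differences was not tested.

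For the dim kinases the line difference is given probe by probe, as a description. Where a probe was below background on every SUDHL-2 array, the difference of the scaled values is a bound, the SUDHL-4 mean over the mean of the SUDHL-2 floors. On DMSO arrays the kept FGR probes were at least 1.57-fold and 1.93-fold higher in SUDHL-4. On water arrays 1 of them was at least 1.43-fold higher, and the other, above background on 1 of 3 SUDHL-2 arrays, had a log2 difference of -1.01. The 3 kept LCK probes were at least 4.48-fold, 2.02-fold and 4.78-fold higher in SUDHL-4 on water arrays. On DMSO arrays LCK's probes disagreed, with at least 2.76-fold and 3.14-fold for a pair of them but a log2 difference of -0.23 for the third, detected on 1 SUDHL-2 array. SRC was above background in SUDHL-2 and not in SUDHL-4 on water arrays, with a difference of 0.15 (adjusted p = 0.184), and this value hung on the processing. It passed without SUDHL-2 water replicate 2 (0.24, adjusted p = 0.0310) and under 6 of 11 other settings, among them no floor (0.69, adjusted p = 0.000279) and the deposited scores (0.91, adjusted p = 1.7e-05), while the 11 ran from -0.02 to 0.91. The SRC probe was kept only through SUDHL-2 arrays of the EtOH experiment, where it is high. Its calls here are thus by construction and no support for a line difference.

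**Figure D4:**
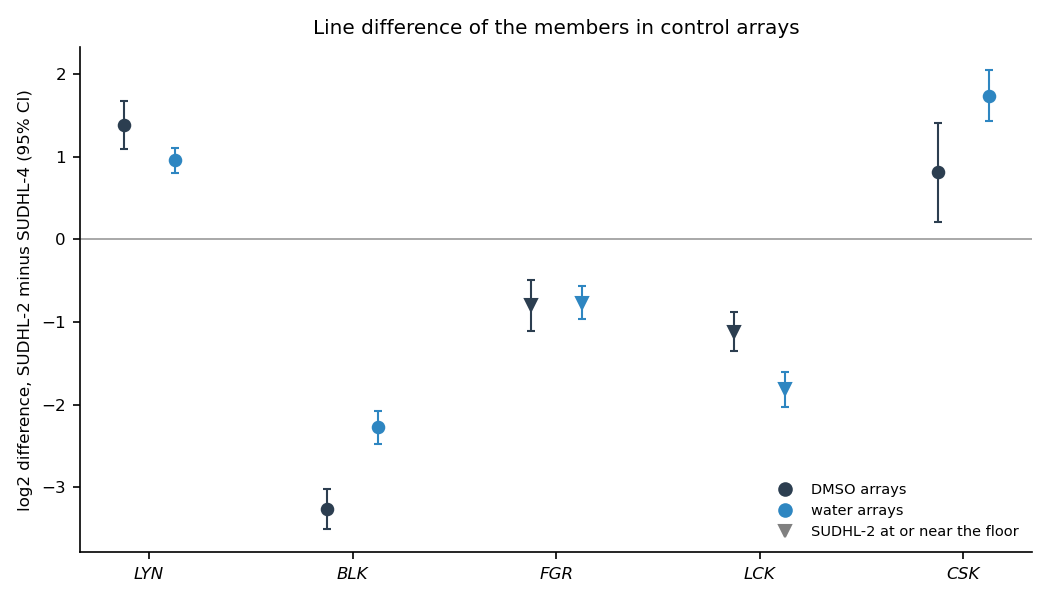
Log2 difference of SUDHL-2 minus SUDHL-4 on DMSO arrays (dark) and water arrays (blue), with 95% intervals; triangles mark genes that were at or near the floor in SUDHL-2, shown as the mean over their kept probes. LYN and CSK lie above 0, and BLK lies at -3.27 and -2.27.

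Across all 8 groups, LYN ran from 5.03 ± 0.18 in SUDHL-2 with INK128 (SD, n = 3) through 4.34 ± 0.19 with DMSO, 4.12 ± 0.06 with water and 4.09 ± 0.05 with EtOH (n = 2). SUDHL-4 followed with 4.04 ± 0.03 with INK128, 3.17 ± 0.03 with water, 3.16 ± 0.07 with EtOH and 2.95 ± 0.17 with DMSO (n = 3 each). The arrays of SUDHL-4 with INK128, at 4.01 to 4.06, overlapped those of SUDHL-2 with EtOH (from 4.05) and with water (from 4.06), which belong to the other experiment. Within their own experiment they stayed below SUDHL-2 with DMSO, at 4.12 to 4.47. DMSO and water arrays of SUDHL-2 overlapped as well. The 5 genes whose levels followed LYN most closely over the 23 arrays, among 7020 detected on every array, were TMBIM4 (Pearson r = 0.97), BABAM2, KMT5B and SPRED2 (0.96 each) and GMFG (0.95). The arrays share the line difference in this measure: CSK, also higher in SUDHL-2, had r = 0.72 with LYN, while BLK (-0.74), LCK (-0.64) and FGR (-0.49), lower in SUDHL-2, ran against it.

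Most measured activating partners of LYN at the B-cell receptor rose with INK128 in SUDHL-4. The gene lists here and below were chosen with earlier results of these data known. Their shares are thus a description and no test of a list. Of 15 activating partners listed 11 were measured, and 9 rose and 0 fell with INK128 in SUDHL-4, a share of 81.8% beside the 8.27% and 7.17% of all entries given above. Their median log2 difference was 0.74, against -0.06 for all entries. CD79A, the receptor's signal chain, rose by 0.68 (SE 0.11, adjusted p = 0.00173) and PLCG2, the phospholipase behind calcium release, by 0.80 (SE 0.13, adjusted p = 0.00130). In SUDHL-2, 1 of the 11 rose with INK128 (9.09%, beside 2.15% higher and 1.47% lower among all entries). This was SYK, the kinase recruited to the chains, higher by 0.78 (SE 0.19, adjusted p = 0.0447). SYK rose in SUDHL-4 too, where its log2 difference was 0.95 (adjusted p = 0.00559). With EtOH 63.6% of the 11 were called in SUDHL-2, beside 8.94% higher and 7.24% lower among all entries. Of the 11, 3 rose and 4 fell there, and 0 passed in SUDHL-4 (medians 0.16 and 0.02). Those that rose were PRKCB (0.77, adjusted p = 0.000105), SYK (0.58, adjusted p = 0.00634) and PLCG2 (0.39, adjusted p = 0.0275). CD79A fell by 0.91 on the log2 scale (adjusted p = 0.000884), and CD79B, VAV1 and VAV2 had log2 differences of -0.63, -0.60 and -0.62, all called. PRKCB, a protein kinase C, was not above background in SUDHL-4 by its kept probes. CD79A and CD79B stand in the list of B-cell markers as well, of which 4 of 6 rose with INK128 in SUDHL-4, where that list's summed signal was 62683 to 84117 with INK128, against 45148 to 49436 with DMSO; its part in these calls was not tested. Among named genes, SYK, CD79B, VAV1, VAV2, LIME1 and PTPN6 lie outside the rule for named genes and were chosen after their values were seen.

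Of 18 inhibitory partners listed, 15 were measured. With INK128 in SUDHL-4, 8 rose (53.3%, beside 8.27% higher and 7.17% lower among all entries), 0 fell and 7 did not pass, with a median of 0.58. PECAM1, an adhesion receptor with inhibitory tail motifs, rose by 1.48 (SE 0.13, adjusted p = 2.82e-05), and CD72, a B-cell coreceptor, by 1.64 (SE 0.16, adjusted p = 3.99e-05). CBLB, a ubiquitin ligase, was the single gene of this list that rose with INK128 in SUDHL-2 (0.64, SE 0.14, adjusted p = 0.0249), and it rose in SUDHL-4 too (1.20, SE 0.14, adjusted p = 0.000148). The SUDHL-2 call is 6.67% of the measured list, beside 2.15% higher and 1.47% lower among all entries. PECAM1's kept probes were not above background in SUDHL-2. With EtOH, 6 of 15 rose and 0 fell in SUDHL-2 (40%, beside 8.94% higher and 7.24% lower among all entries), with a median of 0.26. In SUDHL-4, 1 rose with EtOH (6.67%, beside 0.307% higher and 0.082% lower among all entries), the phosphatase PTPN6 (0.90, SE 0.12, adjusted p = 0.0159).

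The proteins that bring CSK to the membrane, and the phosphatases that act on the kinases, gave 4 calls with INK128 in SUDHL-4. Of 15 listed 12 were measured, and 33.3% of these were called, beside 8.27% higher and 7.17% lower among all entries. Of the 4, 3 rose and 1 fell: the phosphatase PTPRE by 1.08 (adjusted p = 0.000178), the adaptor DOK3 by 0.53 (adjusted p = 0.0138) and the adaptor SIT1 by 0.44 (adjusted p = 0.0194), while the adaptor LIME1 fell by 0.52 (adjusted p = 0.0471). In the other 3 treatment comparisons 0 of 12 passed; SIT1 was at 0.23 with INK128 in SUDHL-2 and DOK3 at 0.16.

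The lists nearer to the other kinases gave at most 2 calls in a treatment comparison. Of 12 adhesion substrates 8 were measured, and CTTN (0.54, adjusted p = 0.0188) and the focal adhesion kinase PTK2 (0.35, adjusted p = 0.0346) rose with INK128 in SUDHL-4, while VCL did not pass (0.38, adjusted p = 0.224). These calls are 25% of the 8, beside 8.27% higher and 7.17% lower among all entries. In the other treatment comparisons 0 of 8 passed. Of 11 genes of lipid anchoring and folding 9 were measured, with 1 call (11.1%), UNC119B, a carrier of myristoylated proteins, higher with EtOH in SUDHL-2 (0.37, adjusted p = 0.0194). Among all entries 8.94% were called higher and 7.24% lower in that comparison. ARL2 (0.74 with INK128 in SUDHL-2, adjusted p = 0.0868) and the chaperone HSP90AB1 (-0.52 with INK128 in SUDHL-4, adjusted p = 0.0535) did not pass. Of 13 T-cell receptor partners 4 were measured, and 1 of them (25%, beside the same shares of all entries), the adaptor LAT, rose with EtOH in SUDHL-2 (0.40, adjusted p = 0.0175). SKAP2 (0.53 with EtOH in SUDHL-4, adjusted p = 0.158) and SKAP1 (0.23 with EtOH in SUDHL-2, adjusted p = 0.103) did not. FRK, a more distant relative of the Src kinases, was above background in SUDHL-2 by its kept probes, with 0.30 for EtOH (adjusted p = 0.0582) and 0.11 for INK128. A list's measured genes passed the filter through any of the 8 groups, including those where they were high.

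**Figure D5:**
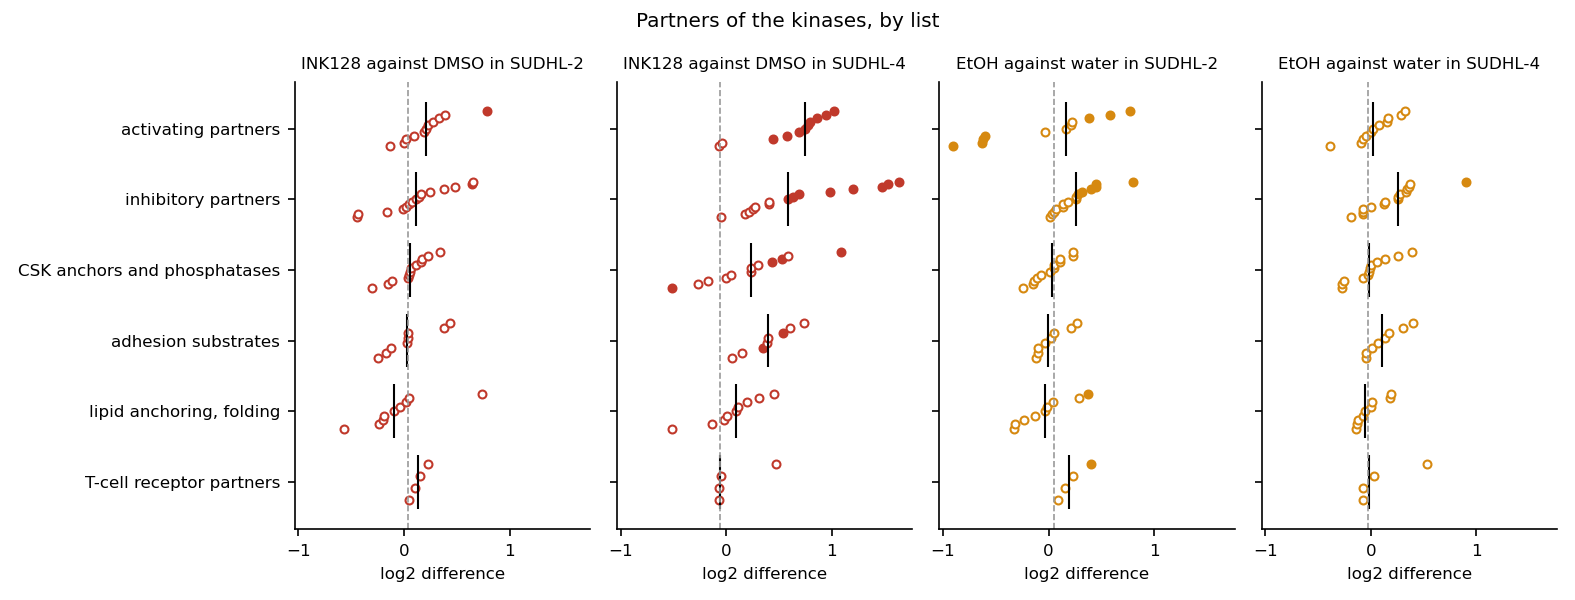
Log2 differences of the measured genes of 6 lists in the 4 treatment comparisons; filled points passed an adjusted p under 0.05, black bars are list medians, and the dashed line is the median of all entries. With INK128 in SUDHL-4 the medians of the activating and inhibitory partners stand at 0.74 and 0.58.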

How the data were processed

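Per the labels, the arrays were exported from GenomeStudio 1.9.0. The authors deposited a signal intensity for each probe and, beside it, a p-value of detection. A further deposited table holds a score, found here to be the Z-score of log signals within an array, taken over every probe. Steps before the export are not known from the sources used here, and the labels and the methods disagree on the HumanHT-12 version. Of 47323 probes listed, 92 had no values. Signals below an array's floor, its lowest detected signal, were set to it. After log2, each array was standardized over the 18136 detected probes and multiplied by the mean SD, 2.03. Averaging probes by symbol gave 10546 genes and 4090 unnamed probes, 14636 entries in all.

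limma 3.58.1 (R 4.3.3) was run separately on the INK128 experiment (12 arrays) and the EtOH experiment (11), and on all 23 arrays for differences between agents, with Benjamini-Hochberg adjustment over all entries and calls at an adjusted p under 0.05. The fits were tested on simulated data with known changes. The named genes are the 8 members, up to 3 genes per list by smallest p, and the 5 genes most like LYN. Members, lists and rules were chosen with earlier results of these data known. Treated and control arrays of the same title number were checked for shared deviations. With EtOH the pairs of SUDHL-4 correlated at 0.39, 0.19 and 0.14 and those of SUDHL-2 at 0.42 and 0.55. The 2 EtOH arrays of SUDHL-2 mirror each other around their mean by construction, so their correlations are not separate evidence. Whether these numbers pair the arrays is not settled. The fits reported in Results used no pairing, and a replicate block was run only as an alternative. The last SUDHL-4 pair correlated better with another array (0.25), and the sample names number these arrays differently, with 0.39, 0.04 and 0.25. INK128 pairs ran from -0.30 to 0.47 and share only a number. Alternatives were other scalings, background corrections and filters, the deposited scores, single probes, other sets of arrays, a replicate block, another moderation and each array left out. Figures used Python 3.11.15 and matplotlib 3.10.9.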

Additional observations from a re-analysis of the deposited data

Results flagged for a closer look

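A difference between 2 responses passed the test for these members. The response to EtOH minus that to INK128 was -0.73 for LYN and -0.65 for BLK in SUDHL-2, and -1.09 for LYN, -0.86 for BLK and -0.96 for LCK in SUDHL-4. These compare 48 h with 24 h of treatment and different controls. The response of LCK to INK128 differed between SUDHL-2 and SUDHL-4 by -0.80, where LCK was above background on 0 of 3 INK128 and 1 of 3 DMSO arrays of SUDHL-2. That call was lost without SUDHL-2 DMSO replicate 3 (adjusted p = 0.0518) or SUDHL-4 DMSO replicate 3 (adjusted p = 0.0547), and with median centring (-0.64, adjusted p = 0.225).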

How the results depend on the processing

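With INK128 in SUDHL-4, LYN kept its call under all 14 other settings (0.88 to 1.14) and with each of 12 arrays left out (0.99 to 1.14), and with EtOH members called stayed at 0 in both lines under all of theirs. In SUDHL-2 the INK128 call of LYN was lost with median centring (0.53, 0 members called), without a detection filter (0.72, 1 member), with only the 2 groups compared (0.70, 0 members) and with trend and robust moderation (0.70, 1 member), and each array left out gave 0.59 to 0.76 and 1 to 2 members. Probes detected on every array left out FGR, LCK and SRC, and gave 2 members called with INK128 in SUDHL-4, 3 at each baseline and 0 for the line difference with INK128. Without a filter 8 were called between lines on water arrays, among 30922 entries called in all. Most entries passed in that setting, since the 47231 probes with values give at most that many entries. The 8 then include FYN and YES1, both at the floor on every water array, so for these it is no measured difference. The line difference with INK128 gave 2 members, against 1, with quantile normalization, the Z-score over all probes, single probes or all 23 arrays, 0 with median centring, and 0 to 2 with each array left out. EtOH minus INK128 in SUDHL-2 gave 0 members with median centring and 1 to 2 with each array left out. The replicate block by title number changed no call of a member: LYN stayed at 0.70 and 1.09 with INK128 (adjusted p = 0.0213 and 0.000578), with 592 and 2477 entries called, and at -0.02 and -0.00 with EtOH, with 3094 and 77. The EtOH line difference gave 1489 entries with that block, against 777, and EtOH in SUDHL-4 gave 0 with a block by sample-name number and up to 174 over all alternatives, against 57. INK128 in SUDHL-2 gave 6 to 1494 entries, against 530, and in SUDHL-4 1373 to 3343, against 2260. No reversal was found. Blocks cannot be fitted between lines, so that alternative was not run for the baselines. Signal over the floor limits FGR, LCK and SRC. The causes of these changes were not tested.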
